A study of Mus musculus with 8 samples.

Results

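ATF4 and 8 proteins that work with it, oppose it or share its binding sites were followed as a set of 9 genes: Atf4, Atf3, Atf5, Ddit3, Cebpb, Cebpg, Nupr1, Trib3 and Jdp2. They are 9 of the 19938 genes that the arrays measured through a row annotated with a single symbol. The genes were chosen by name, with earlier results of these same hearts known. The mean level over all 8 hearts was to settle which row stands for a gene with several rows, but each of the 9 had 1 row, so no measured value decided between rows. The number of these genes that differed is therefore a description and not evidence that the set stands apart.

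Hearts of 4 mice labelled MHC-Plin5 and 4 labelled control were compared, all male, 12 weeks old, of the c57/bl background and described as fasted. MHC-Plin5 mice carry extra Plin5, the lipid droplet coat protein perilipin 5, directed to cardiomyocytes by the myosin heavy chain promoter that the name refers to. Whole hearts hold many cell types, and a transcript made by fewer cells of a type cannot be told apart from less RNA per cell. The labels say neither whether the controls were littermates without the transgene nor how long the mice had fasted.

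ATF4 is the transcription factor of the integrated stress response, in which kinases phosphorylate the initiation factor eIF2, general protein synthesis slows and the ATF4 message is translated more. Most of the proteins in the set are basic leucine zipper (bZIP) factors, which bind DNA as pairs. ATF4 pairs with C/EBP factors on a composite C/EBP-ATF element and switches on genes of amino acid synthesis and transport, among them several of its own partners and inhibitors. Arrays measure RNA and give no view of the translational control of ATF4 itself.

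The RefSeq promoter windows of GRCm38.p6, which run from 250 bases before to 50 bases after each annotated start, were searched on both strands for the core letters of that element, TGATGNAA. All 9 genes had at least 1 window, 12 windows in all, and 4 of the 12 held a match, one each in Atf3, Nupr1, Jdp2 and Trib3. Of all 32851 windows of this length, 3.97% held one. The matched stretches are shown because they are where the letters bound by ATF4 pairs occur close to the start of a gene of the set. Capitals mark the match, and each line runs 5′ to 3′ along the gene's own strand. Atf3 (chr1:191183390-191183489, minus strand) and Nupr1 (chr7:126625527-126625626, minus strand) carry it on the opposite strand, 110 bases before the start in each. Jdp2 (chr12:85599316-85599415, plus strand) carries it on its own strand, 33 bases before one of its annotated starts. Trib3 (chr2:152344028-152344057, minus strand) carries it on the opposite strand, from transcribed base 15 onward, and only 30 bases are shown.
Atf3: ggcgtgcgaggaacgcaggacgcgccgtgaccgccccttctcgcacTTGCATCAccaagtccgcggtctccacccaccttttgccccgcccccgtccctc
Nupr1: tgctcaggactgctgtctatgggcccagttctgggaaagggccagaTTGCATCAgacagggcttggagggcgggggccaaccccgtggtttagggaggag
Jdp2: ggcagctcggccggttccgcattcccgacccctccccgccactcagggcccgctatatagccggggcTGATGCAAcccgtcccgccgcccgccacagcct
Trib3: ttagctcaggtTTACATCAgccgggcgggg

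Ddit3 held no such match and was the 1 gene of the set with an AP-1 element, TGACTCA or its reverse complement TGAGTCA, the letters bound by FOS and JUN pairs. It lies 242 bases before the start (chr10:127290543-127290642, plus strand) and is in capitals below. Of all windows, 5.2% held such an element. The cyclic AMP response element TGACGTCA was in 0 of the 12 windows and in 1.79% of all windows. A match is a run of letters and was not measured as a binding site, and a window without one says nothing about binding elsewhere.
Ddit3: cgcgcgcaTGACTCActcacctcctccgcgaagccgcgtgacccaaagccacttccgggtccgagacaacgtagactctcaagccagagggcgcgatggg

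Of the 9 genes, 6 rose in MHC-Plin5 hearts, 0 fell and 3 did not pass the test. Atf5, Trib3, Atf4 and Nupr1 were between 2.79-fold and 3.31-fold higher, and Cebpg and Ddit3 were 2.31-fold and 2.07-fold higher. Atf3 stood 2.18-fold higher on average with a wide spread, while Cebpb and Jdp2 differed by 1.16-fold and 1.11-fold and, like Atf3, were not called. The threshold for a call was an adjusted p below 0.05 in limma, a linear model with variances moderated across genes, with Benjamini-Hochberg adjustment over all 19938 genes. By this rule 2.08% of all genes were called higher and 1.17% lower. The median log2 difference was 1.21 over the 9 genes and -0.03 over all genes.

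**Figure D1:**
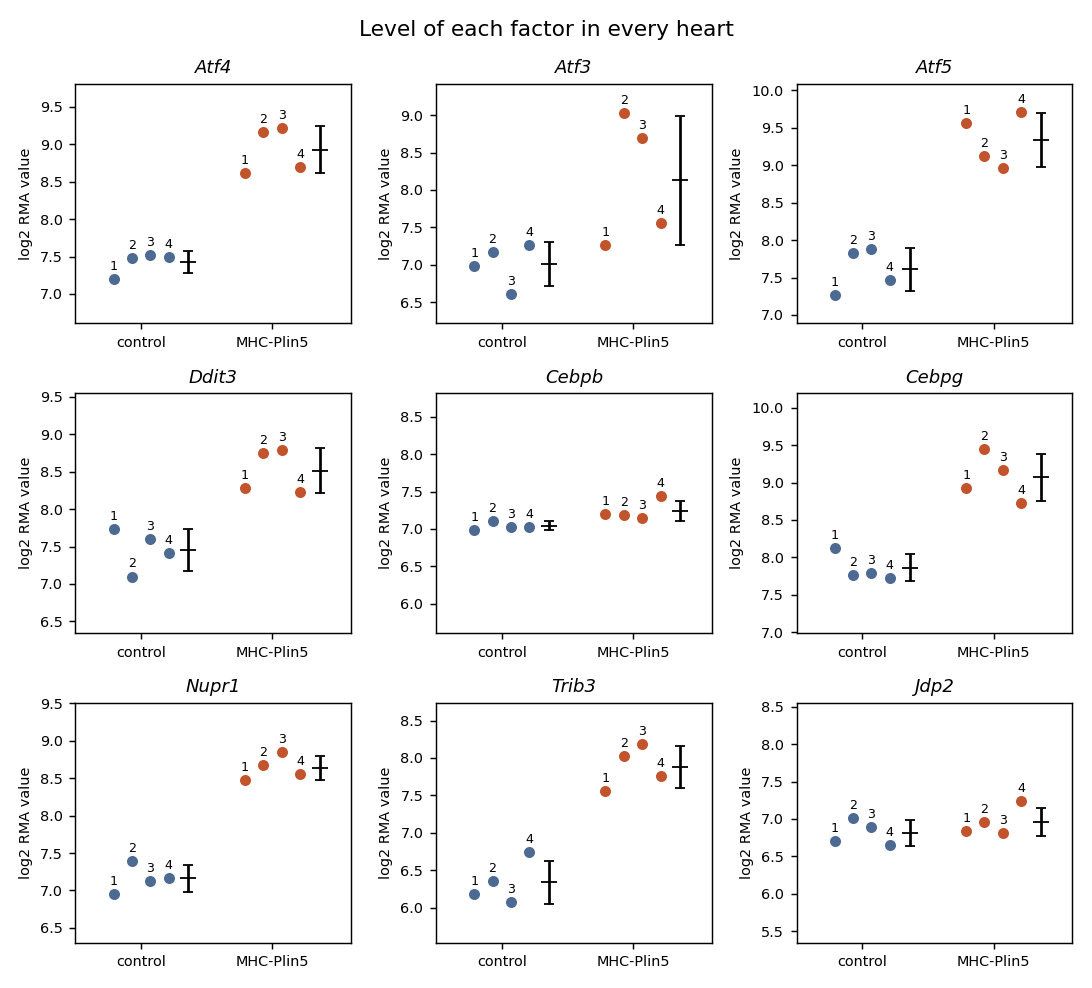
Log2 RMA value of each of the 9 genes (vertical axis, spanning the same width in each panel) in control hearts (blue) and MHC-Plin5 hearts (orange). Each point is 1 heart with its number, and the black mark shows the mean with its SD (n = 4). The groups are separate in 7 panels, narrowly so for Cebpb, and overlap for Atf3 and Jdp2.

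Plin5 was checked first. It lay at 12.17, 12.69, 12.63 and 12.08 in MHC-Plin5 hearts 1 to 4 and between 8.58 and 9.04 in the control hearts, so the labels were borne out in each heart. The mean of 7 cardiomyocyte markers lay between 13.58 and 13.63 in control and between 13.36 and 13.61 in MHC-Plin5 hearts. Array medians were 6.25 in control 2 and 6.18 in MHC-Plin5 4 and between 5.99 and 6.04 in the other 6 hearts. Of the marker lists of other cell types, 1 gene passed the test: Kcnj8, a potassium channel of pericytes. Its log2 difference was -0.43 (SE 0.10, limma adjusted p = 0.0377). It was no longer called once any 1 of the controls, or heart 2 or 3 of the MHC-Plin5 group, was left out. Of the 5 markers in its list, 2 had an unadjusted p under 0.05, and the median was -0.36. The second was Rgs5 (-0.36, SE 0.1, limma adjusted p = 0.0951). Quantile normalization, a minimum mean of 7 or array weights called 2 of the 5 lower. Median centring or the heart number as a block called 0. The mean level of the 6 macrophage markers ran from 8.02 to 8.51 in control and from 8.23 to 8.89 in MHC-Plin5 hearts, and limma called 0 of the 6, with 0 at an unadjusted p under 0.05. Of the 4 neutrophil markers, all 4 had a difference above 0, with a median of 0.36 on the log2 scale, 0 were called by limma and 3 had an unadjusted p under 0.05. Their mean was 0.14, 0.60, 0.33 and 0.13 above its control mean in MHC-Plin5 hearts 1 to 4, highest in hearts 2 and 3, at levels of 5.44 to 5.91 against 5.19 to 5.43 in control hearts. The 4 atrial markers varied most between hearts, with means from 7.77 to 11.61 in control and from 8.57 to 11.43 in MHC-Plin5 hearts, and 0 were called by limma and 1 had an unadjusted p under 0.05. The part of these cells in the results below was not tested.

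Atf4 itself was higher in every MHC-Plin5 heart. Its log2 level was 7.20, 7.48, 7.52 and 7.50 in control hearts 1 to 4, against 8.62, 9.16, 9.22 and 8.70 in MHC-Plin5 hearts 1 to 4. The groups were 1.10 apart at their nearest hearts, and MHC-Plin5 2 and 3 were the high pair. The means were 7.43 ± 0.15 and 8.93 ± 0.31 (SD, n = 4 each), a log2 difference of 1.5 (SE 0.15, 95% confidence interval 1.17 to 1.83), and limma gave an adjusted p of 0.000521. With any single heart left out the difference stayed between 1.4 and 1.6, and the call held.

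Cebpg encodes a short C/EBP protein that lacks a strong activation domain of its own and is a partner of ATF4 on the composite element. It was measured at 8.13, 7.77, 7.79 and 7.73 in control hearts 1 to 4, against 8.93, 9.45, 9.17 and 8.73 in MHC-Plin5 hearts 1 to 4. The lowest MHC-Plin5 heart was 0.60 above the highest control heart, which was control 1. The log2 difference was 1.21 (SE 0.16, limma adjusted p = 0.00238), on means of 7.86 ± 0.18 and 9.07 ± 0.31 (SD, n = 4 each).

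Ddit3, also known as CHOP, pairs with C/EBP factors and drives genes of prolonged endoplasmic reticulum stress, including some that favour cell death. Its log2 levels were 7.74, 7.10, 7.6 and 7.41 in control hearts 1 to 4, against 8.28, 8.75, 8.79 and 8.23 in MHC-Plin5 hearts 1 to 4. The groups did not overlap, with 0.49 between the nearest hearts, the narrowest separation among the 6 called genes. The log2 difference was 1.05 (SE 0.17, limma adjusted p = 0.00915). In RefSeq's gene models Ddit3 overlaps 2 other genes, Mbd6 and Mars1, the latter encoding methionyl-tRNA synthetase. Mbd6 had a log2 difference of 0.02 (SE 0.11), and Mars1, itself on the list of ATF4-responsive genes used below, was called higher at 0.96 (SE 0.09, limma adjusted p = 0.000326). The array's annotation gives the Ddit3 row to Ddit3 alone, and where its probes lie within the overlap was not examined.

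Cebpb encodes the C/EBP factor of inflammation, fat cell formation and the acute phase, which can also pair with ATF4. Its levels were 6.98, 7.11, 7.03 and 7.02 in control hearts 1 to 4, against 7.20, 7.19, 7.15 and 7.44 in MHC-Plin5 hearts 1 to 4. Every MHC-Plin5 heart was above every control heart, but by as little as 0.04. The log2 difference of 0.21 (SE 0.10, 95% confidence interval -0.01 to 0.42) was not called (limma adjusted p = 0.316), and the interval allows at most a 1.34-fold rise. Including Cebpb, 7 of the 9 genes had every MHC-Plin5 heart above every control heart, as had 6.24% of all genes.

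Among the ATF relatives, Atf5 had the largest estimated difference of the set. ATF5 is itself under translational control by eIF2 phosphorylation and is known as a factor of the mitochondrial unfolded protein response. The levels were 7.27, 7.83, 7.88 and 7.47 in control hearts 1 to 4, against 9.57, 9.12, 8.96 and 9.71 in MHC-Plin5 hearts 1 to 4. All MHC-Plin5 hearts were at least 1.09 above the highest control, and here hearts 1 and 4 were the high pair. The log2 difference was 1.73 (SE 0.19, 95% confidence interval 1.32 to 2.14, limma adjusted p = 0.000917). Nup62, a nuclear pore gene that overlaps Atf5 in RefSeq's models, had a log2 difference of -0.09 (SE 0.11).

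Atf3, a stress-induced factor that can repress as well as activate, divided the MHC-Plin5 hearts. Its levels were 9.03 and 8.69 in MHC-Plin5 2 and 3 but 7.26 and 7.56 in MHC-Plin5 1 and 4. The control hearts lay at 6.99, 7.17, 6.61 and 7.27, so MHC-Plin5 1 was within the control range. The SD was 0.86 in MHC-Plin5 and 0.29 in control hearts (n = 4 each), and the log2 difference of 1.12 (SE 0.34, 95% confidence interval 0.37 to 1.88) was not called (limma adjusted p = 0.114). It was called without MHC-Plin5 1 (1.41, adjusted p = 0.0356) and when limma gave the arrays unequal weights (1.43, adjusted p = 0.0275).

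Immediate early genes, which respond within minutes to stimulation and handling and to which Atf3 is often counted, were set beside it. In MHC-Plin5 1 to 4 the mean of 14 such genes was 0.02, 0.38, 0.61 and 0.13 above its control mean. Of the 14, 0 were called by limma at the adjusted threshold and 5 had an unadjusted p under 0.05, of which Dusp1 was lower. Dusp1 had a log2 difference of -0.49 (SE 0.15, limma adjusted p = 0.114) and lay at 10.12, 10.02, 9.82 and 10.37 in MHC-Plin5 1 to 4. Array weights called 2 of the list higher and 1 lower. Without MHC-Plin5 4, 1 was called higher and 1 lower, and without both arrays of the highest medians 0 higher and 1 lower. A minimum mean of 7, the heart number as a block, or leaving out control 4 or MHC-Plin5 1 called 1 higher. Egr2, the zinc finger factor with the largest difference of the list, was picked after its values were seen. It was at 7.59 and 8.37 in MHC-Plin5 2 and 3 and at 6.76 and 6.33 in MHC-Plin5 1 and 4. The part of this list in the Atf3 values was not tested.

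Jdp2 encodes a repressor of AP-1 that is close to ATF3 in sequence and pairs with JUN. It was at 6.70, 7.01, 6.89 and 6.65 in control hearts 1 to 4, against 6.84, 6.96, 6.81 and 7.24 in MHC-Plin5 hearts 1 to 4, and the groups overlapped. The log2 difference was 0.15 (SE 0.12, 95% confidence interval -0.12 to 0.43, limma adjusted p = 0.609). Jdp2 lies between Fos and Batf, both of them bZIP genes, whose log2 differences were 0.13 (SE 0.19) and -0.03 (SE 0.15).

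Nupr1 and Trib3 encode modulators rather than bZIP factors. NUPR1 is a small chromatin protein induced by many stresses. Its log2 levels were 6.95, 7.39, 7.13 and 7.17 in control hearts 1 to 4, against 8.48, 8.68, 8.85 and 8.56 in MHC-Plin5 hearts 1 to 4. This was the tightest MHC-Plin5 group of the 6 called genes, with an SD of 0.16. The log2 difference of 1.48 (SE 0.12) had the smallest adjusted p of the set in limma, 0.000117, and ranked 14 among all genes by p.

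TRIB3 is a pseudokinase that binds ATF4 and CHOP and dampens them, and that also binds the kinase AKT. Its levels were 6.18, 6.35, 6.07 and 6.74 in control hearts 1 to 4, against 7.56, 8.02, 8.19 and 7.76 in MHC-Plin5 hearts 1 to 4. The nearest hearts, control 4 and MHC-Plin5 1, were 0.82 apart. The log2 difference was 1.55 (SE 0.17, limma adjusted p = 0.000922). The relatives Trib1 and Trib2 had log2 differences of 0.08 (SE 0.12) and -0.32 (SE 0.11, adjusted p = 0.163), and Nupr1l, the relative of Nupr1, had 0.07 (SE 0.11). Stk40, a further pseudokinase of the family, was nearest to a call (0.42, SE 0.10, adjusted p = 0.0526 in limma), with the groups 0.18 apart. Of these 4 relatives, 0 were called and 2 had an unadjusted p under 0.05, and 1 was called higher with a minimum mean of 5 or 7, median centring, an intensity trend, array weights or MHC-Plin5 4 left out.

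**Figure D2:**
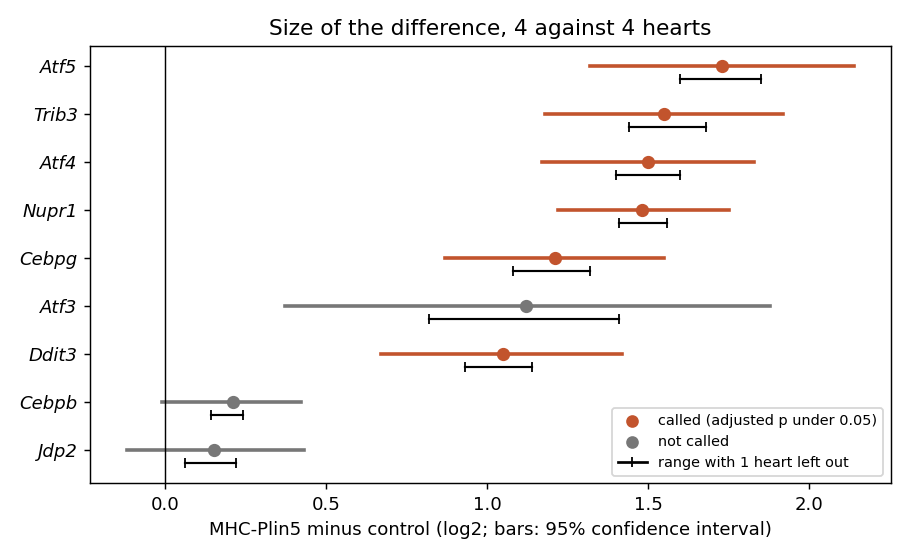
MHC-Plin5 minus control difference on the log2 scale (horizontal axis) for each of the 9 genes, with the 95% confidence interval of limma as a coloured bar and the range over 8 fits that leave out 1 heart as a black bar. The 6 called genes (orange) lie from 1.05 to 1.73, Atf3 (grey) at 1.12 has the widest interval, and Cebpb and Jdp2 (grey) lie at 0.21 and 0.15.

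The differences of the other 8 genes were set against that of Atf4 within each heart, with an exact two-sided permutation test and adjustment over the 8 gaps. With 4 hearts against 4, the exact permutation test cannot go below p = 0.0286. Atf4's difference exceeded that of Cebpb by 1.29 and that of Jdp2 by 1.35 on the log2 scale, each at the smallest possible p and at an adjusted p of 0.114 by the permutation test. The gap was 0.45 for Ddit3 (exact p = 0.0571, adjusted p = 0.152), 0.38 for Atf3 and 0.29 for Cebpg. For Nupr1, Trib3 and Atf5 it was 0.02, -0.05 and -0.23. With adjustment over 8 gaps, 2 gaps at the smallest possible p cannot pass the threshold, so the adjusted values say nothing either way on these 2. In limma the 95% confidence interval of Atf4, 1.17 to 1.83, lay wholly above those of Cebpb, -0.01 to 0.42, and Jdp2, -0.12 to 0.43.

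The order of the MHC-Plin5 hearts was compared between the genes. In 6 of the 9, namely Atf4, Atf3, Ddit3, Cebpg, Nupr1 and Trib3, hearts 2 and 3 were the highest pair. The same pair was highest in 15.6% of all genes and in 56.6% of the 415 genes called higher. In Atf5 and Cebpb it was hearts 1 and 4, the highest pair in 28.6% of all genes and in 6.51% of those called higher. In Jdp2 it was hearts 2 and 4, the highest pair in 20.8% of all genes and in 8.67% of those called higher. Plin5 was also highest in hearts 2 and 3, as were the means of the neutrophil markers and immediate early genes given above. The mean of the cardiomyocyte markers was lowest in hearts 2 and 3. It stood at -0.05, -0.15, -0.24 and 0.01 from its control mean in MHC-Plin5 1 to 4. MHC-Plin5 4, the array with the raised median, had the highest value of the group in 3 genes, Atf5, Cebpb and Jdp2. How often this heart was highest over all genes was not counted. The spread among the 4 MHC-Plin5 hearts, highest minus lowest, ran from 0.29 for Cebpb to 1.77 for Atf3. In Ddit3, Nupr1 and Trib3 the control hearts spread more than the MHC-Plin5 hearts, by 0.64 against 0.55, 0.44 against 0.36 and 0.66 against 0.63. The part of the transgene's level, of the neutrophil and cardiomyocyte markers, of the immediate early genes and of the array median in these orders was not tested.

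**Figure D3:**
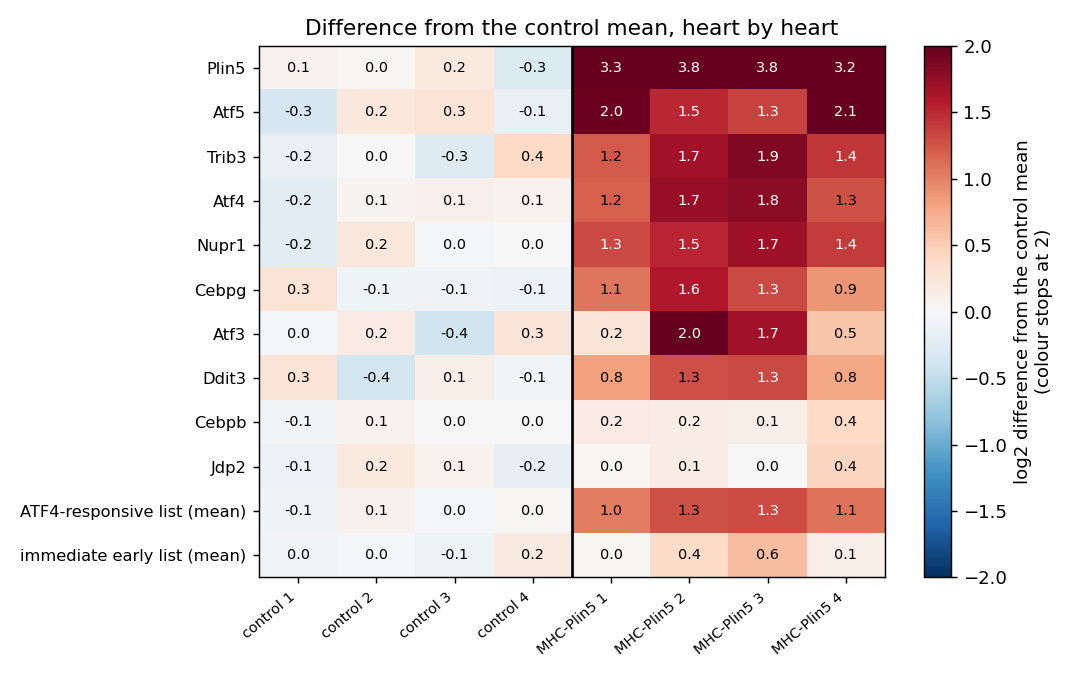
Log2 difference from the control mean in each of the 8 hearts (columns) for Plin5, the 9 genes and the mean over the lists of ATF4-responsive and immediate early genes (rows), with the value written in each cell. Hearts 2 and 3 of the MHC-Plin5 group are darkest for Trib3, Atf4, Nupr1, Cebpg, Atf3 and Ddit3, and hearts 1 and 4 for Atf5.

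Genes with the pattern closest to Atf4 were found by the root mean square, over the 8 hearts, of the gap between each gene's deviation from its control mean and that of Atf4. Psat1, an enzyme of serine synthesis, came first with a gap of 0.13 on the log2 scale. Nupr1 was second with 0.13, followed by Srxn1, which repairs oxidised peroxiredoxins, with 0.14, the cytosolic chaperone Hsph1 with 0.16 and Polr3g, a subunit of RNA polymerase III, with 0.18. Trib3 ranked 6 among 18709 genes with 0.19. Cebpg, Ddit3, Atf5 and Atf3 followed at ranks 41, 77, 117 and 143, and Cebpb and Jdp2 at 2670 and 3711. The measure uses both the size of the difference and the order of the hearts.

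Genes that ATF4 is known to switch on rose in most of the list. The list was drawn up with earlier results of these hearts known, so its counts are a description. Of 37 listed genes outside the set, 34 had a row of their own symbol. Of these, 22 were called higher and 1 lower, beside 2.08% and 1.17% of all genes. The median log2 difference of the 34 was 0.95, with 31 above 0. The 8 with the smallest p were Asns (asparagine synthesis, 4.46), Mthfd2 (mitochondrial folate cycle, 4.37), Slc7a5 (neutral amino acid import, 3.23), Slc6a9 (glycine import, 1.86), Gars (glycyl-tRNA synthetase, 1.55), Aldh18a1 (proline synthesis, 2.04), Nars (asparaginyl-tRNA synthetase, 1.29) and Chac1 (glutathione breakdown, 2.16), all as log2 differences. Their limma adjusted p ran from 2.76e-07 to 0.000219. The 1 lower gene was the lipoprotein receptor Vldlr (-0.63, SE 0.14, adjusted p = 0.034 in limma), a call that did not outlast leaving out any 1 of the controls, or heart 2 or 3 of the MHC-Plin5 group. Of the called rises, Fgf21 lost its call in 7 of the 8 fits that leave out 1 heart, Cth in 4 and Sesn2 in 3. The other rises kept theirs. In the 4 MHC-Plin5 hearts the mean of the list was 1.03, 1.27, 1.31 and 1.08 above its control mean, again highest in hearts 2 and 3.

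The 11 listed genes that were not called included 4 that are often named as ATF4 targets, picked here after their values were seen. Psph, the last enzyme of serine synthesis, had a log2 difference of 0.10 (SE 0.14) beside 1.54 for Psat1 and 1.47 for Phgdh in the same pathway. Ddit4, an inhibitor of mTORC1, had 0.11 (SE 0.24), the secreted factor Stc2 had 0.06 (SE 0.12) and Vegfa, the vessel growth factor, -0.07 (SE 0.09). Others lay higher without passing the test, among them the glutamine importer Slc38a2 (0.49, SE 0.15, adjusted p = 0.124 in limma), which was above every control in every MHC-Plin5 heart. Gpt2, which makes alanine, had 0.45 (SE 0.20, adjusted p = 0.288) and the folate enzyme Mthfd1l had 0.38 (SE 0.18, adjusted p = 0.318).

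Of 6 measured genes placed downstream of CHOP, 1 was called higher and 0 lower, beside 2.08% and 1.17% of all genes. The median log2 difference was 0.25, and 4 of the 6 had an unadjusted p under 0.05, of which Bcl2l11 was lower. In 2 of the 6 every MHC-Plin5 heart was above every control heart, as in 6.24% of all genes. The called gene was Ppp1r15a, also known as GADD34, the phosphatase subunit that reverses eIF2 phosphorylation, at 0.89 (SE 0.11, limma adjusted p = 0.00189). Ppp1r15a is also on the ATF4-responsive list and is already counted among its called rises. It went from 7.03, 7.17, 7.01 and 7.23 in control hearts 1 to 4 to 7.76, 8.06, 8.01 and 8.18 in MHC-Plin5 hearts 1 to 4. Ero1a (0.78, SE 0.27, adjusted p = 0.166 in limma) and the death receptor Tnfrsf10b (0.43, SE 0.18, adjusted p = 0.253) were not called. Nor was the BH3-only gene Bcl2l11 (-0.59, SE 0.21, adjusted p = 0.163). Array weights called 2 of the 6 higher and 1 lower. Leaving out MHC-Plin5 4, or both arrays of the highest medians, called 1 higher and 1 lower.

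Upstream, among 11 measured genes of the eIF2 kinases, the phosphatase subunits and the exchange factor eIF2B, 1 was called higher and 0 lower. Of all genes, 2.08% were called higher and 1.17% lower. The called gene was again Ppp1r15a, already counted above. Another phosphatase subunit, Ppp1r15b, also had an unadjusted p under 0.05 but was not called (0.28, SE 0.1, limma adjusted p = 0.176). Without MHC-Plin5 4, 2 of the 11 were called higher. The kinases Eif2ak1, Eif2ak2, Eif2ak3 and Eif2ak4 had log2 differences of 0.09, 0.15, 0.20 and -0.04, with SE between 0.10 and 0.17. Their activity is set by phosphorylation, which arrays do not measure.

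Genes of the endoplasmic reticulum stress response under ATF6 or XBP1 had a median log2 difference of -0.07 over 17 genes. Of these, 1 was called higher and 0 lower, beside 2.08% and 1.17% of all genes, and 3 had an unadjusted p under 0.05. The called gene was Atf6 itself (0.57, SE 0.14, limma adjusted p = 0.0455), a call that was lost on leaving out any 1 of the controls, or heart 1 or 2 of the MHC-Plin5 group. It was also lost with quantile normalization and with the heart number as a block. Herpud1 (0.38, SE 0.15, limma adjusted p = 0.227) and Hspa5, the chaperone BiP (-0.36, SE 0.13, adjusted p = 0.194), were not called, and Xbp1 stood at -0.06 (SE 0.15). Among 10 mitochondrial chaperones and proteases, 1 was called higher and 0 lower, beside the same shares of all genes. The called gene was the protease Lonp1 (0.99, SE 0.10, limma adjusted p = 0.000508). The chaperones Hspe1 (0.54, SE 0.15, limma adjusted p = 0.089), Hspa9 (0.34, SE 0.10, adjusted p = 0.0888) and Hspd1 (0.28, SE 0.10, adjusted p = 0.199) were not called. Nor were the protease subunits Clpx (-0.50, SE 0.19, adjusted p = 0.197) and Clpp (-0.24, SE 0.11, adjusted p = 0.286). The median of these 10 was 0.05, 5 of them had a difference above 0 and 6 had an unadjusted p under 0.05. In 4 of them every MHC-Plin5 heart was above every control heart, as in 6.24% of all genes. Array weights called 4 higher and 2 lower. A minimum mean of 7, median centring or an intensity trend called 2 higher. So did adding the array median to the model or leaving out both arrays of the highest medians. Without MHC-Plin5 4, 2 were called higher and 1 lower.

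**Figure D4:**
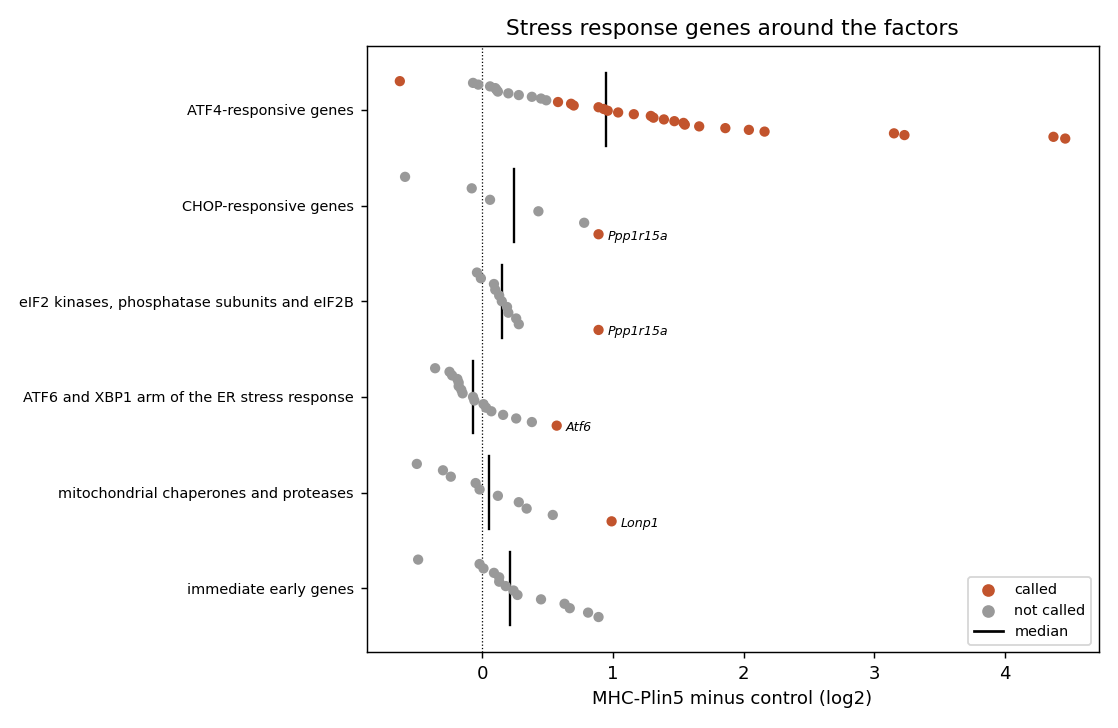
MHC-Plin5 minus control difference on the log2 scale (horizontal axis) of every measured gene in 6 lists of stress genes (rows), with called genes in orange, others in grey and the list median as a black line. The ATF4-responsive list, with 22 of 34 genes called higher beside 2.08% of all genes, reaches 4.46, and its median is 0.95. The medians of the other 5 lists lie between -0.07 and 0.25. Ppp1r15a stands in the ATF4-responsive, CHOP-responsive and eIF2 rows.

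Of 39 measured bZIP factors outside the set, 3 were called higher and 1 lower, beside 2.08% and 1.17% of all genes, with log2 differences between -0.75 and 0.58 and a median of 0.09. Besides Atf6, the called rises were Mafk (0.58, SE 0.12, limma adjusted p = 0.0306) and Mafg (0.43, SE 0.10, adjusted p = 0.0386), small MAF proteins that pair with NRF2. Mafk lost its call without control 1, 3 or 4 or MHC-Plin5 2 or 3, and Mafg without any single heart other than MHC-Plin5 4. Hlf, a clock-controlled factor, was lower (-0.75, SE 0.12, limma adjusted p = 0.00644), at 7.19, 6.92, 6.93 and 7.35 in MHC-Plin5 hearts 1 to 4 against 7.94, 7.80, 7.80 and 7.83 in control hearts 1 to 4, a call that held in all 8 fits with 1 heart fewer. The factors listed with Hlf, namely Dbp (-0.07, SE 0.14), Tef (-0.03, SE 0.15) and Nfil3 (0.24, SE 0.13), were not called.

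Within the families of the 9 genes, 0 of the 3 other C/EBP factors and 0 of the 10 FOS, JUN and BATF factors were called by limma, and 1 in each list had an unadjusted p under 0.05. Those were Cebpd (0.46, SE 0.14, adjusted p = 0.108 in limma) and Fosl2 (0.45, SE 0.19, adjusted p = 0.264). With quantile normalization, median centring or array weights, 1 of the 3 C/EBP factors was called higher. Of the 12 other ATF and CREB factors, Atf6 alone was called, and 4 including Atf6 had an unadjusted p under 0.05. Creb3 (0.49, SE 0.13, limma adjusted p = 0.0666) and Creb3l1 (0.58, SE 0.2, adjusted p = 0.156) were not called. Nor was Creb1 (-0.31, SE 0.13, adjusted p = 0.258). The median of the 12 was 0.22. A minimum mean of 7, an intensity trend or array weights called 2 of them higher. Quantile normalization or the heart number as a block called 0. Jun, the partner of Atf3 and Jdp2, had a log2 difference of -0.02 (SE 0.15). Nfe2l2, which encodes NRF2 and whose protein can pair with ATF4, was not called (0.30, SE 0.10, adjusted p = 0.158).

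**Figure D5:**
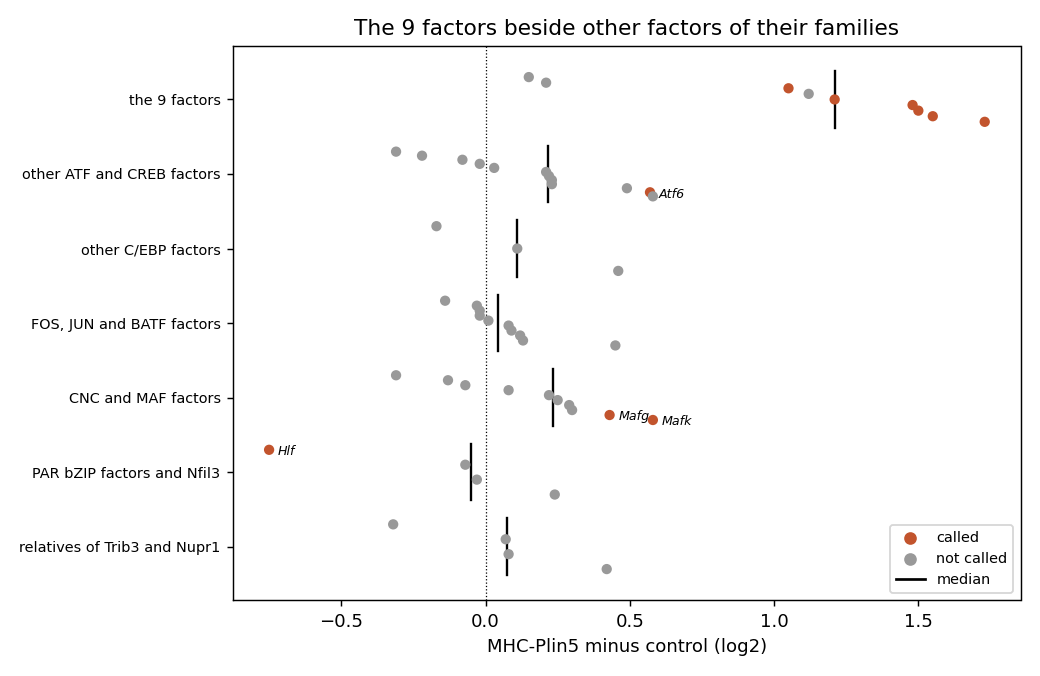
MHC-Plin5 minus control difference on the log2 scale (horizontal axis) of the 9 genes and of other factors grouped by family (rows), with called genes in orange, others in grey and the group median as a black line. The 9 genes have a median of 1.21 and reach 1.73, while the other bZIP factors lie between -0.75 and 0.58.

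The genes next to the 9 on their chromosomes gave a local comparison. RefSeq's protein-coding neighbours were measured in 17 cases, and of these Mars1, beside Ddit3, was the 1 called, with 0 called lower. The shares over all genes were 2.08% called higher and 1.17% lower. Without Mars1 the neighbours lay at log2 differences from -0.33 for Fam71a, next to Atf3, to 0.40 for Ptpn1, next to Cebpb (SE 0.14, limma adjusted p = 0.161). The neighbours of Atf4, Mief1 and Rps19bp1, stood at -0.03 (SE 0.09) and 0.28 (SE 0.12, limma adjusted p = 0.241), and those of Trib3, Rbck1 and Nrsn2, at 0.09 (SE 0.10) and -0.11 (SE 0.10).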

How the data were processed

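RNA of 8 mouse hearts was labelled with biotin and hybridised to Affymetrix whole-transcript arrays, per the labels' protocols. The authors deposited log2 values made by RMA (background correction, normalization and summary over probes), and the submitters' processing notes name Affymetrix Expression Console as the software. The version is not given in the sources used here, and array medians were not equal after it. Scanner files and scan dates were not used here, so no batch was tested. The number of arrays limits the precision.

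Of 35556 rows, 21789 had exactly 1 symbol in GEO's platform annotation, 1621 had several and 12146 none. Their gene IDs matched RefSeq's GRCm38.p6 table in 21698 cases. Where a gene had more than 1 row (999 genes), the brightest on average over the 8 hearts stood for it. The test was limma 3.58.1 (lmFit, eBayes) in R 4.3.3, without a filter, with genotype as the 1 term, two-sided. Python 3.11.15, pandas 2.3.3 and scipy 1.17.1 made the other tables. Labels give each heart its own number and 4 mice per group.

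The members and gene lists were chosen with earlier results of these data known. Named are the 9 genes, up to 8 called ATF4-responsive genes and up to 4 called genes of other lists by p, the 5 genes nearest to Atf4, and, picked after their values were seen, neighbours and uncalled members of the lists. Predicted genes were left out of the search for genes near Atf4. The fit was tested on simulated data. The alternatives tried were a minimum mean log2 value of 5 or of 7, a trend of variance on intensity with robust variances, array weights, quantile normalization, centring on array medians, the mean over rows, every row, the heart number as a block, each heart left out, an adjusted p under 0.01 and a 1.5-fold minimum. Leaving out both arrays of the highest medians, and adding each array's median to the model, were alternatives chosen after seeing the data.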

Additional observations from a re-analysis of the deposited data

Results flagged for a closer look

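The check covered 58 groups of 4 hearts, for part of the genes named above, and the other named genes were not checked. Of the 58, 4 held a heart whose gap to the nearest other made up most of the group's range. Chance gives about 1 in 20 groups. Control 1 was low for Atf4 at 7.20, where the other controls lay between 7.48 and 7.52. The same heart was high for Cebpg at 8.13, where the others lay between 7.73 and 7.79. Control 3 was low for Chac1 at 6.91 against 7.12 to 7.15. MHC-Plin5 4 was low for Mthfd2 at 10.25, where MHC-Plin5 1 stood at 11.01 and MHC-Plin5 3, the highest, at 11.14.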

How the results depend on the processing

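All 6 called members kept their direction and their call in each of the 19 alternatives, with the highest adjusted p of limma at 0.035, for Ddit3 without MHC-Plin5 2. Cebpb and Jdp2 were not called in any alternative that measured them. Jdp2 has no value with a minimum mean of 7, which it misses. Counted over all genes, calls moved more. Quantile normalization gave 355 lower calls in place of 233, and array weights gave 884 higher and 741 lower in place of 415 and 233. An adjusted p under 0.01 gave 129 higher and 40 lower, and ATF4-responsive calls were then 17 higher and 0 lower. A minimum mean of 7 also left 17 higher, of 27 measured. With 1 heart left out, higher calls ran from 170 to 614 and lower calls from 56 to 560, and the number of ATF4-responsive genes called lower was 0 or 1. The ATF4-responsive genes called higher were 19 to 22 in those fits. The heart numbers were not taken to pair hearts: deviations of same-numbered hearts correlated between -0.11 and 0.19, and 1 of 4 numbers matched best with itself. With the number as a replicate block, 6 members and 21 ATF4-responsive genes were called higher and 0 of the latter lower. The cause of these shifts was not tested.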
